A study of Mus musculus with 12 samples.

Results

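The 10 genes described here were listed as delayed activity-induced effectors: Bdnf, Nptx2, Homer1, Nr4a3, Pcsk1, Inhba, Nptx1, Ptgs2, Rgs4 and Rheb. They were found by symbol among 46078 gene IDs, and each matched 1 row. Their RNA was measured in 12 libraries of hippocampus from mice of strain C57BL/6 aged 25 days after birth. The groups were mutant males, wild-type males, mutant females and wild-type females, with 3 libraries each. Mutants were heterozygous for the frameshift allele Asn2373LysfsX2 of Chd8, whose protein is a chromatin remodeller. The labels name no stimulus or treatment for any group.

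Neuronal firing switches on genes in waves. Immediate early genes, such as Fos, are transcribed within minutes and mostly encode transcription factors, while delayed genes follow and mostly encode proteins that act at synapses or are secreted. Bdnf is a neurotrophin that strengthens excitatory synapses through its receptor, and Nptx2 is a secreted pentraxin that gathers glutamate receptors at synapses onto inhibitory interneurons. Transcription of several of these genes depends on calcium entry and on CREB, a factor that binds the cAMP response element. The question put to the data was whether Bdnf and Nptx2 move with the other late effectors across genotype and sex.

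Facts that touch every result were the following. The mutated gene itself checked the labels: Chd8 had 2383 to 2513 normalized counts in mutant libraries and 2751 to 2994 in wild-type libraries. Reads recovered from the table numbered 23721482 to 24654408 in mutant libraries and 26912998 to 33327314 in wild-type libraries, so depth and genotype cannot be told apart. No batch is named in the labels. Mutant males 2 and 3 and wild-type female 1 stood apart with little choroid plexus RNA. Ttr, a choroid plexus transcript, had 167 to 274 normalized counts in these 3 libraries and 43047 to 156059 in the other 9. The labels do not say that libraries came from separate animals, so a p-value measures the spread between libraries, which may be technical. In RNA from whole tissue, fewer cells of a type and less RNA per cell cannot be told apart.

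Promoters are shown first, for 4 of the 6 members in which the core motif of CREB was found. RefSeq start sites on GRCm38.p6 matched 8 of 10 members with 15 starts, of which 7 were of Bdnf and 2 of Homer1, while Nptx2 and Nptx1 are named only. In the 250 bases before the start, the core TGACG of the cAMP response element, sought on both strands, lay before 6 of the 15 starts, 1 each of Bdnf, Homer1, Nr4a3, Pcsk1, Rgs4 and Rheb. The core was present in 17.8% of 32851 promoter windows of that length. The full palindrome TGACGTCA was before 1 of the 15 starts, that of Pcsk1, and in 1.55% of windows; its letters hold the core on each strand. The AP-1 motif TGANTCA, on both strands, was before 1 start and in 6.75% of windows. The TATA motif TATAAA, on the gene's strand, was before 2 starts and in 7.59% of windows. The motif AAAGGTCA, known to bind NR4A receptors, was before 0 starts and in 1.34% of windows, on either strand. Below are the windows of 4 members with cAMP response motifs near or far from the start, 5′ to 3′, with each match in capitals (CGTCA is the core on the other strand).
Bdnf (chr2:109692186-109692435, plus strand): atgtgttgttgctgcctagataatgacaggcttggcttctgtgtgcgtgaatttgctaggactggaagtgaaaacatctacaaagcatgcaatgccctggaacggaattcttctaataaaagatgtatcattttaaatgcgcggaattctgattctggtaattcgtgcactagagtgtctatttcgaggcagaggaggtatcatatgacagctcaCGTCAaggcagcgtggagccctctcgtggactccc
Nr4a3 (chr4:48045055-48045304, plus strand): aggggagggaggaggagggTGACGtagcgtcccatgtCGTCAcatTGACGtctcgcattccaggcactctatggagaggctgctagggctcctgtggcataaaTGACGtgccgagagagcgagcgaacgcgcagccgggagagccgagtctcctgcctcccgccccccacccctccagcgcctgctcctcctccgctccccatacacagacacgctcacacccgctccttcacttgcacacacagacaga
Pcsk1 (chr13:75089607-75089856, plus strand): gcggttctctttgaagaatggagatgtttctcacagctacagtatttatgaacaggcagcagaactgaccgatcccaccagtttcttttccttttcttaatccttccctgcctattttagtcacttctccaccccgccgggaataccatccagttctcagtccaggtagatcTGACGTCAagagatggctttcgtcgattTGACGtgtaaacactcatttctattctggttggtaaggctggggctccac
Homer1 (chr13:93303507-93303756, plus strand): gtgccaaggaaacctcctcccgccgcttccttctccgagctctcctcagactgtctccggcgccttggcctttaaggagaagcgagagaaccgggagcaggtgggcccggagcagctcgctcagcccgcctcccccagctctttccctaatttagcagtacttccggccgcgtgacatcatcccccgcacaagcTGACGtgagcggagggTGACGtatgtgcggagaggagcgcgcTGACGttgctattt
The single match of Bdnf, at this start alone of its 7, lay 35 bases before the start. Nr4a3 had 4 matches, 231 to 147 bases before the start. Pcsk1 had its palindrome 78 bases and a further core 50 bases before the start, and Homer1 had cores 56, 40 and 14 bases before it. A match describes letters only, and none of these data measure binding there.

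Levels of the members differed widely. Per kilobase of exon, a scale that allows genes to be compared, the mean level over 12 libraries was highest for Nptx1 (2981 normalized counts per kb) and then Rgs4 (1545). Nr4a3 followed at 478, Nptx2 at 310, Homer1 at 273, Rheb at 266, Ptgs2 at 217, Bdnf at 215, Pcsk1 at 78.4 and Inhba at 10.8 normalized counts per kb. The single-library values of Nptx2 (235 to 360), Homer1 (246 to 303), Rheb (245 to 294), Ptgs2 (170 to 263) and Bdnf (184 to 245 per kb) overlapped between neighbours in this order, so these 5 genes are not ranked against each other. Exon length here is the union of all annotated exons, and gene-level counts cannot separate the short activity-induced form of Homer1 from the long forms, or the start sites of Bdnf. Inhba rested on 52 to 88 reads per library and the other 9 members on at least 341. All 10 passed the filter on low values (mean of at least 10 normalized counts).

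**Figure D1:**
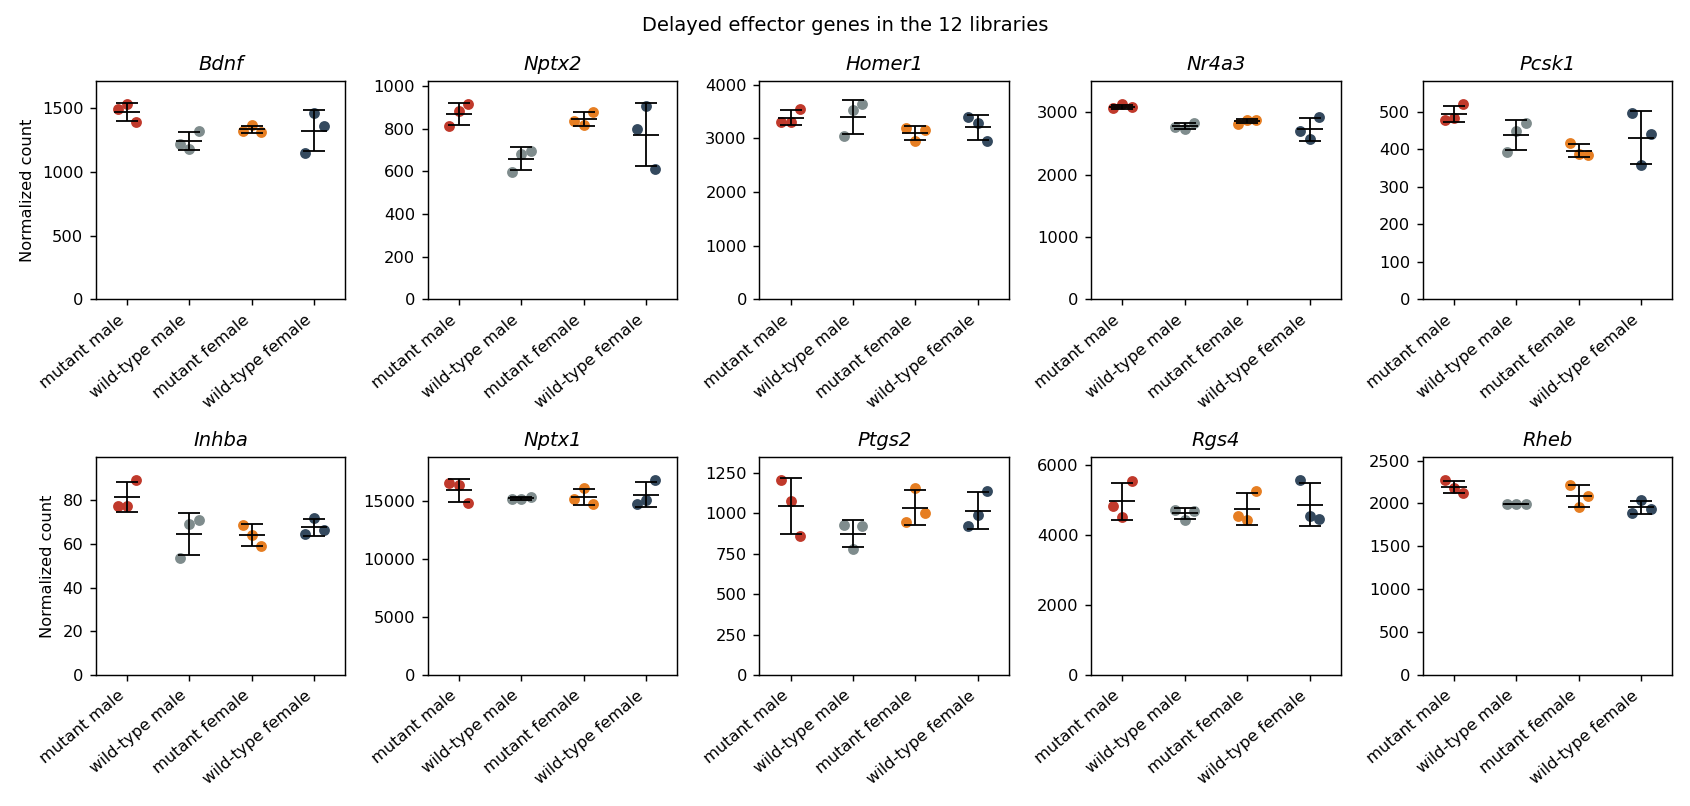
Normalized count (y axis, starting at 0) of each member in the 12 libraries, by group (x axis); points are libraries, the long line is the group mean and the whiskers 1 SD (n = 3). In Bdnf and Nptx2 the 3 mutant males lie above the 3 wild-type males, while the wild-type females spread across the mutant females.

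Bdnf was higher in every mutant male than in any wild-type male, and its female groups overlapped. This gene (ENSMUSG00000048482, chr2:109674700-109727007, plus strand) had 1488, 1526 and 1389 normalized counts in mutant males, against 1220, 1178 and 1321 in wild-type males. In females it had 1316, 1365 and 1310 normalized counts in mutants, against 1143, 1458 and 1359 in wild type. The lowest and the highest female values were both from wild type, with the mutant females between them. The difference in males was 18.4% (95% interval 5.36 to 33.1%; log2 0.24, standard error 0.08). It did not pass the threshold of 0.05 over 17496 genes (limma adjusted p = 0.418). The difference in females was 1.31% (interval -9.84 to 13.9%; limma adjusted p = 0.985), and averaged over the sexes it was 9.52% (0.85 to 18.9%; adjusted p = 0.513). An exact two-sided permutation test within the sexes gave p = 0.085 for the average. For males alone the exact permutation test gave p = 0.1, the smallest that 3 against 3 can give. Exons of Bdnf share 896 bases with Gm45346, a gene on the opposite strand that has no value here, and the kit does not keep strand, so reads of that stretch cannot be assigned.

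Nptx2 was likewise higher in every mutant male than in any wild-type male. This gene (ENSMUSG00000059991, chr5:144545902-144557478, plus strand) had 812, 882 and 913 normalized counts in mutant males, against 597, 683 and 696 in wild-type males. In females it had 836, 815 and 878 normalized counts in mutants, against 799, 905 and 611 in wild type. The mutant males lay apart from the wild-type males, whereas wild-type female 1 lay just below the mutant females, wild-type female 2 above them and wild-type female 3 with the wild-type males. Its difference in males was 32.0% (95% interval 10.9 to 57.1%; log2 0.40, standard error 0.12; limma adjusted p = 0.407). In females it was 10.7% (-7.02 to 31.7%; limma adjusted p = 0.867; p = 0.6 by exact permutation). Averaged over the sexes it was 20.9% (6.87 to 36.7%; log2 0.27, standard error 0.08). That average was not called (limma adjusted p = 0.368; DESeq2 adjusted p = 0.159); the exact permutation p was 0.03 before any adjustment, with 0.005 the smallest possible. Without wild-type female 3 the log2 difference in females was -0.013, against 0.15 with all libraries.

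Among the other secreted products, Inhba and Pcsk1 were arranged like Bdnf in males, and Nptx1 was not. Inhba encodes the subunit of activin A (ENSMUSG00000041324, chr13:16011851-16031621, plus strand). It had 77.4, 77.1 and 89.1 normalized counts in mutant males, against 53.4, 69.2 and 71.0 in wild-type males. Its counts in females were 68.8, 64.0 and 58.8 in mutants and 64.5, 71.8 and 66.4 in wild type, and these overlapped. The log2 difference of Inhba was 0.33 in males (standard error 0.15; limma adjusted p = 0.471) and -0.08 in females (adjusted p = 0.956). Pcsk1 encodes proprotein convertase 1/3, which cuts prohormones and neuropeptide precursors in secretory granules (ENSMUSG00000021587, chr13:75089826-75134861, plus strand). It had 479, 483 and 519 normalized counts in mutant males, against 393, 448 and 471 in wild-type males. For females the values were 416, 386 and 386 in mutants and 497, 357 and 440 in wild type. The log2 difference of Pcsk1 was 0.18 in males and -0.11 in females (limma adjusted p = 0.594 and 0.902), so its male and female differences had opposite signs without passing a test. The male value was 0.10 without wild-type male 1 and 0.080 after adjustment for the choroid plexus score. The female value was -0.061 after that adjustment, -0.0016 when wild-type female 1 was left out and -0.24 when wild-type female 2 was left out. Nptx1, a pentraxin related to Nptx2 (ENSMUSG00000025582, chr11:119538719-119547753, minus strand), had 14832 to 16559 normalized counts in mutant males and 15193 to 15410 in wild-type males. In females it had 14747 to 16168 in mutants and 14786 to 16842 in wild type. Its groups overlapped in both sexes, and its average difference was 1.47% (95% interval -4.40 to 7.71%).

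Nr4a3 and Rheb had the smallest standard errors among the members and lay apart in males. Nr4a3 is an orphan nuclear receptor (ENSMUSG00000028341, chr4:48045153-48086447, plus strand). It had 3062, 3122 and 3077 normalized counts in mutant males, against 2758, 2737 and 2831 in wild-type males. Female counts of Nr4a3 were 2816, 2881 and 2871 in mutants and 2693, 2562 and 2927 in wild type. In females 2 of 3 wild-type libraries were below all mutants and wild-type female 3 was above them. The average log2 difference was 0.11 (standard error 0.03; limma adjusted p = 0.351). Rheb is the small GTPase that activates mTORC1, the kinase complex that drives protein synthesis (ENSMUSG00000028945, chr5:24802823-24842624, minus strand). It had 2271, 2183 and 2124 normalized counts in mutant males, against 1993, 1993 and 1997 in wild-type males. Females had 2210, 1963 and 2086 normalized counts of Rheb in mutants and 1890, 2035 and 1935 in wild type. Wild-type males agreed closely with each other, and the female groups overlapped. The average log2 difference was 0.12 (standard error 0.03; limma adjusted p = 0.359).

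Ptgs2, Homer1 and Rgs4 overlapped between genotypes in both sexes. Ptgs2, the inducible cyclooxygenase of prostaglandin synthesis (ENSMUSG00000032487, chr1:150100031-150108227, plus strand), had 1204, 1073 and 862 normalized counts in mutant males, against 924, 779 and 918 in wild-type males. In females it had 946, 1153 and 1004 in mutants and 919, 986 and 1139 in wild type. Mutant males 1 and 2 were the highest males and mutant male 3 lay among the wild type (log2 difference in males 0.25, standard error 0.12; limma adjusted p = 0.509). Homer1, a scaffold that tethers metabotropic glutamate receptors (ENSMUSG00000007617, chr13:93299635-93405129, plus strand), had 3296 to 3546 normalized counts in mutant males and 3037 to 3632 in wild-type males. In females Homer1 had 2943 to 3185 in mutants and 2946 to 3391 in wild type. It was the only member whose average difference was below 0, at -1.82% (95% interval -8.83 to 5.73%). Rgs4 shortens signalling through G proteins (ENSMUSG00000038530, chr1:169741477-169747642, minus strand). It had 4513 to 5543 normalized counts in mutant males and 4426 to 4703 in wild-type males, and in females 4409 to 5246 in mutants and 4447 to 5555 in wild type. The average difference of Rgs4 was 2.39% (95% interval -7.38 to 13.2%).

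**Figure D2:**
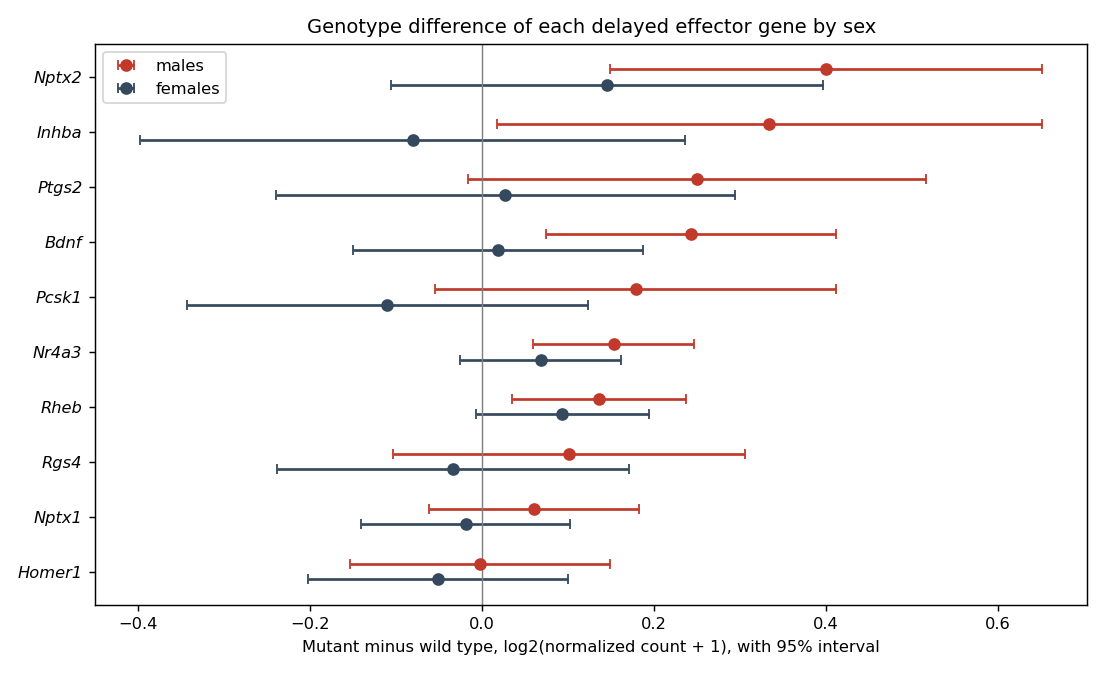
Difference in log2(normalized count + 1), mutant minus wild type (x axis), of each member in males and in females; points are limma estimates and bars 95% intervals. The male intervals of Nptx2, Inhba, Bdnf, Nr4a3 and Rheb lie above 0 before adjustment, and every female interval includes 0.

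Over the list, 0 of 10 members were called for genotype, and most lay above wild type in males without passing the adjusted threshold. The number past the adjusted threshold was 0 of 10 in males (limma, background 0%), 0 in females (background 0%) and 0 averaged over the sexes (background 0.00572%, which is 1 gene, Chd8). edgeR and DESeq2 on recovered reads also called 0 members in each comparison, where DESeq2 called 0.2% of tested genes in males, 0.0629% in females and 0.429% on average. In males DESeq2 gave no adjusted p for Bdnf, Nptx2, Pcsk1, Inhba and Ptgs2, and on average none for Inhba. At an unadjusted p under 0.05, 5 members were higher in mutant males (Nptx2, Bdnf, Nr4a3, Rheb and Inhba; background 4.1%), and 0 were lower (background 6.23%). Averaged over the sexes there were 4 higher (Nptx2, Nr4a3, Rheb and Bdnf; background 4.4%) and 0 lower (background 4.47%). In females there were 0 higher (background 3.82%) and 0 lower (background 3.07%). Mutant and wild-type libraries did not overlap in 6 members in males, all higher in mutants: Pcsk1, Nr4a3, Rheb, Inhba, Bdnf and Nptx2 (background 8.37% higher and 7.68% lower). In females this held for 0 members (background 5.14% higher and 5.66% lower), and for all 6 mutants against all 6 wild-type libraries for 0 (background 0.303% higher and 0.24% lower). The median log2 difference of the members was 0.17 in males, 0.00003 in females and 0.11 on average, beside 0.0017, 0.0011 and -0.0001 over all tested genes. Above 0 were 9 of 10 members in males, 5 in females and 9 on average, beside 50.6%, 50.5% and 49.9% of all tested genes. The members were chosen with earlier results of these data known. Counts of members beside shares of all tested genes, here and below, are therefore descriptions and no test of the list. The 5 members with an unadjusted p under 0.05 in males became 3 without mutant male 1, and the 0 in females became 3 without wild-type female 2.

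Differences of the male from the female genotype effect were positive for all 10 members and called for 0 (limma, background 0%). Their median was 0.18 on the log2 scale, beside 0.0051 over all tested genes, of which 51.6% were above 0. Bdnf differed by 0.22 (standard error 0.11; limma adjusted p = 0.654) and Nptx2 by 0.25 (standard error 0.16; adjusted p = 0.756). The Nptx2 value was 0.13 when wild-type female 2 was left out and was 0.41 when wild-type female 3 was left out. It was 0.13 without the 3 libraries low in choroid plexus RNA, and 0.081 and 0.094 with the choroid plexus and pyramidal scores as covariates. Under these 3 settings the Bdnf value was 0.35, 0.36 and 0.24. The largest estimate was that of Inhba, 0.42 (95% interval -0.03 to 0.86; limma adjusted p = 0.668), and the smallest that of Rheb, 0.04 (-0.10 to 0.18; adjusted p = 0.918). At an unadjusted p under 0.05 there were 0 members (background 2.44% higher and 5.41% lower), and DESeq2 called 0 (background 0.0171%). A larger genotype difference in males than in females was therefore not shown for any member.

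Between the sexes, averaged over genotypes, 0 members were called (limma, background 0.0686%; DESeq2, background 0.274%). At an unadjusted p under 0.05, 0 members were lower in males (background 3.54%) and 2 were higher (background 3.1%): Pcsk1, by 12.7% (95% interval 0.52 to 26.3%), and Nr4a3, by 4.96% (0.24 to 9.90%). Bdnf differed by 1.96% (-6.11 to 10.7%) and Nptx2 by -5.72% (-16.6 to 6.63%).

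Bdnf and Nptx2 correlated positively over the libraries, but not past a test and not within the groups. Pearson's r of their log2 levels was 0.486 over 12 libraries (permutation p = 0.109, adjusted 0.231 over 17 pairs of Bdnf or Nptx2 with another member), and Spearman's rho was 0.566 (permutation p = 0.0591, adjusted 0.180). Without the 2 libraries farthest from the median of Bdnf, r was 0.578, and without the 3 libraries low in choroid plexus RNA it was 0.559. After the group means were removed, r was 0.037 (exact permutation p = 0.968 over 1296 arrangements within groups). Wild-type females had the widest spread of both genes, with an SD of 161 normalized counts for Bdnf and 149 for Nptx2. In the other groups the SD was 30.4 to 73.5 for Bdnf and 31.9 to 53.6 for Nptx2. Deviations were not scaled by group, so r within groups, here and below, rests most on the wild-type females. In the plot of both levels, mutant males lie at the upper right and wild-type males at the lower left, while the wild-type females have no order.

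**Figure D3:**
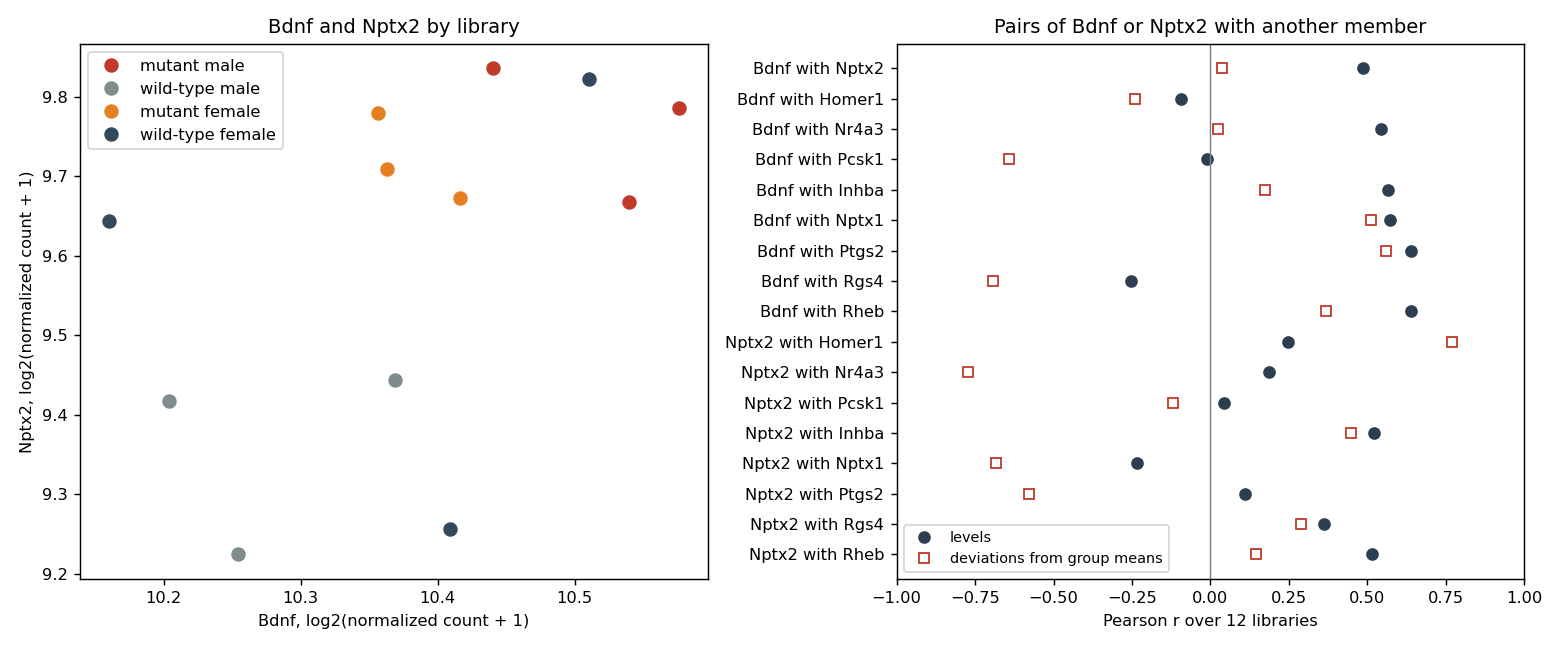
Left, log2(normalized count + 1) of Nptx2 (y axis) against that of Bdnf (x axis), 1 point per library, coloured by group. Right, Pearson's r (x axis) over 12 libraries of Bdnf or Nptx2 with each other member, for levels (filled) and for deviations from group means (open); the pair of Bdnf with Nptx2 has 0.486 and 0.037.

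With the other late effectors, Bdnf had a positive r in 6 of 9 pairs and Nptx2 in 7 of 8, and 0 of the 17 passed adjustment. After the group means were removed, r was positive in 6 of 9 pairs of Bdnf and in 4 of 8 of Nptx2. The highest values of Bdnf were with Ptgs2 (r = 0.639; permutation p = 0.0261, adjusted 0.215; rho = 0.559, permutation p = 0.0636) and with Rheb (r = 0.638; permutation p = 0.0269, adjusted 0.215; rho = 0.566, permutation p = 0.0587). Without the 2 libraries farthest from the median of Bdnf these were 0.663 and 0.433, and within groups 0.558 and 0.369. Bdnf and Nr4a3 had r = 0.542 (permutation p = 0.0690, adjusted 0.215; rho = 0.643, permutation p = 0.0287, adjusted 0.180). Its value depended on wild-type female 2, which had the lowest Nr4a3 and a high Bdnf level: without it r was higher, at 0.942 (permutation p adjusted over 17 pairs 0.00102). Of all pairs with each library left out in turn, only this 1 correlation passed the threshold. Its p-value is not adjusted for the choice of the library left out, so no co-movement is concluded from it. Without the 2 libraries farthest from the median of Bdnf, r of Bdnf with Nr4a3 was 0.295, and within groups it was 0.024. The highest values of Nptx2 were with Inhba (r = 0.521; permutation p = 0.0847, adjusted 0.215; rho = 0.510, permutation p = 0.0951) and Rheb (r = 0.514; permutation p = 0.0887, adjusted 0.215; rho = 0.566, permutation p = 0.0588). Without the 2 libraries farthest from the median of Nptx2, these r were 0.233 and 0.403. Within groups Nptx2 was highest with Homer1 (r = 0.769; exact permutation p = 0.0231, adjusted 0.266) and lowest with Nr4a3 (r = -0.772; exact permutation p = 0.225). Within groups Bdnf was lowest with Rgs4 (r = -0.692; exact permutation p = 0.0548).

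Genes whose deviations from the group means were most like those of Bdnf, among the 12766 tested genes that averaged 100 or more normalized counts, were Pcdhgb2 (r = 0.973), Capza2 (0.955), Anxa11 (0.950), Palmd (0.949) and Tfip11 (0.948). For Nptx2 they included Cpne8 (r = 0.970), Mturn (0.947) and Homer2 (0.945). The 12 libraries share their depth and tissue composition between genes, so these are descriptions. Among the members the best placed for Bdnf was Ptgs2 at rank 1319 of 12766, with Nptx2 at rank 6296. For Nptx2 the best placed member was Homer1 at rank 491, with Bdnf at rank 6381. Inhba was below the minimum for this ranking.

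Among the genes listed as rapid immediate early genes, 0 were called for genotype by limma or DESeq2. For sex, limma called 1 (background 0.0686%) and DESeq2 called 2 (background 0.274%). Of 16 tested, 11 were above 0 in the average genotype comparison, beside 49.9% of all tested genes, with a median log2 difference of 0.05. Npas4, a neuronal activity factor known to act on Bdnf, had 266 to 349 normalized counts in mutant males and 213 to 255 in wild-type males, which did not overlap (log2 0.39; limma adjusted p = 0.471). In females Npas4 had 288 to 341 in mutants and 237 to 406 in wild type. Egr4, a zinc finger factor, had 478 to 549 normalized counts in mutant males and 424 to 451 in wild-type males (log2 0.25; limma adjusted p = 0.476). Between the sexes 13 of 16 were above 0, beside 47.7% of all tested genes, and limma called Egr2, a transcription factor of the same family. Egr2 had 45.4 to 64.5 normalized counts in the 6 male libraries and 22.7 to 32.8 in the 6 female libraries (log2 1.06; limma adjusted p = 0.0057). Fos was called by DESeq2 (adjusted p = 0.0027) and not by limma (log2 0.42; adjusted p = 0.0635). None of the 10 members showed male libraries all above or all below female libraries (background 0.274% and 0.194%).

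Other delayed activity-induced genes gave 12 of 16 above 0 on average (median 0.06), beside 49.9% of all tested genes, and 0 called by limma (background 0.00572%). For sex, 11 of 16 were above 0, beside 47.7% of all tested genes. There limma called 0 (background 0.0686%) and DESeq2 called 2 (background 0.274%). For the average genotype difference DESeq2 called 1 (background 0.429%), Scg2, the precursor of secretoneurin. Scg2 had 5863, 5343 and 5359 normalized counts in mutant males, against 4566, 4835 and 4856 in wild-type males. In females it had 5291, 5330 and 5270 in mutants and 5264, 5242 and 4949 in wild type. All 6 mutant libraries were above all 6 wild-type libraries (background 0.303%), and the average log2 difference was 0.13 (standard error 0.03; limma adjusted p = 0.311; DESeq2 adjusted p = 0.0336). Vgf, another secreted granule protein, had an average log2 difference of 0.12 (limma adjusted p = 0.551).

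Partners of the members were described from lists of their pathways, and limma called 0 genes of any of these lists for genotype. Prohormone processing genes, the partners of Pcsk1, were above 0 on average in 7 of 7, beside 49.9% of all tested genes. Their median log2 difference was 0.11 in males and 0.01 in females. Pcsk1n, the inhibitor of Pcsk1, had 7454, 7939 and 7235 normalized counts in mutant males, against 6397, 6197 and 5969 in wild-type males, and 6669 to 8466 in mutant females, against 6670 to 7553 in wild-type females. Pam, which amidates neuropeptides, had 4708, 4865 and 4499 normalized counts in mutant males, against 4031, 4298 and 4036 in wild-type males. DESeq2 called both in males (adjusted p = 0.0466 each; background 0.2%), while limma did not (adjusted p = 0.407 each; background 0%). Of the pentraxin partners, all 5 were above 0 in males, beside 50.6% of all tested genes, with a median of 0.05. Nptxr, the pentraxin receptor, had a log2 difference of 0.17 in males (limma adjusted p = 0.437). Nptxr had 25639, 23826 and 25012 normalized counts in mutant males, against 22319, 21659 and 22180 in wild-type males, and its female groups overlapped.

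The remaining pathways are given by their average genotype difference, which was above 0 in 49.9% of all tested genes. BDNF receptors and processing genes were above 0 on average in 3 of 6 (median -0.0026; Plat, Furin and Sort1 at -0.06, 0.04 and 0.02). Homer relatives and their receptor partners were above 0 in 5 of 7 (median 0.0064; Shank3, a postsynaptic scaffold, 0.05). Genes listed for activin signalling were above 0 in 7 of 7 (median 0.06), with the highest value in Fstl1, a follistatin-like secreted protein, at 0.23 (limma adjusted p = 0.407). Prostaglandin enzymes and receptors were above 0 in 4 of 8 tested of 9 (median 0.02; Ptger3, a prostaglandin receptor, 0.37, limma adjusted p = 0.562). RGS relatives were above 0 in 5 of 6 (median 0.04; Rgs7 0.05) and genes of Rheb and mTORC1 in 5 of 9 (median 0.03; Rps6kb1 0.04).

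**Figure D4:**
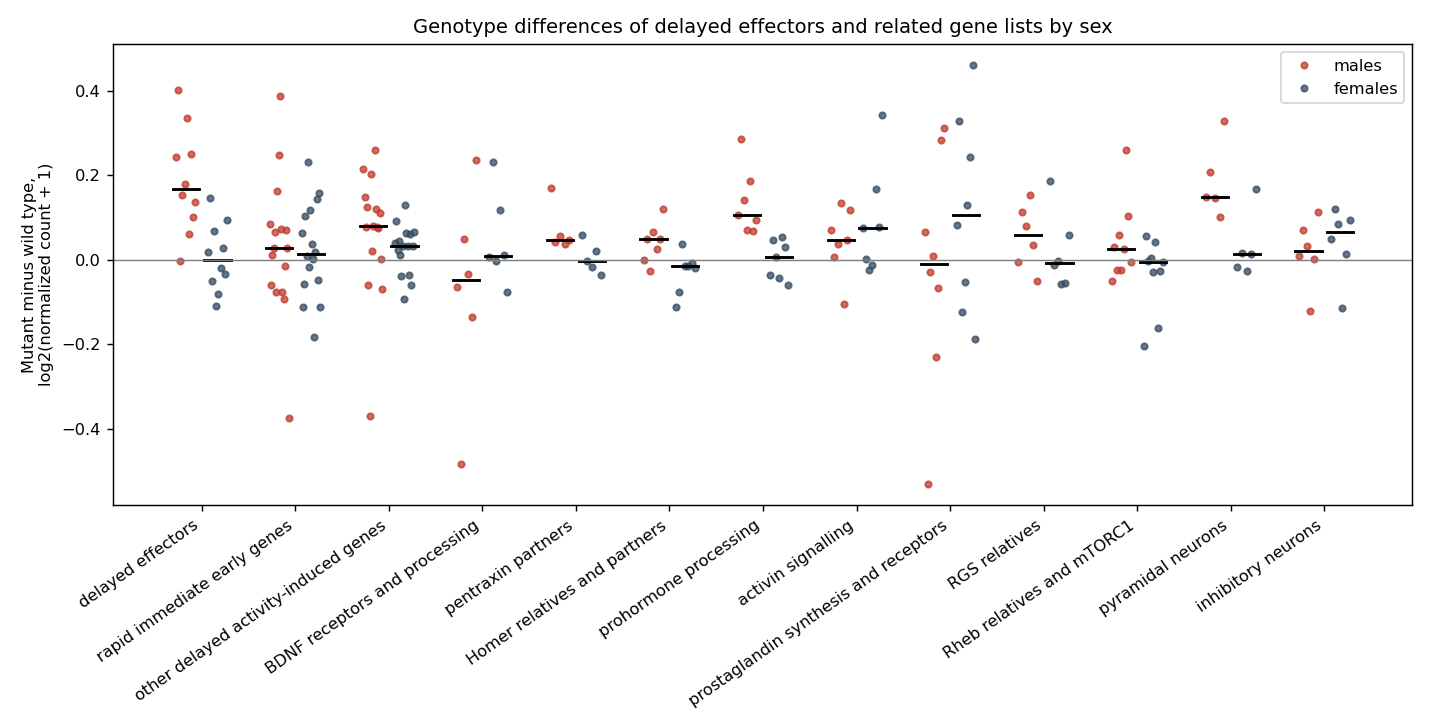
Difference in log2(normalized count + 1), mutant minus wild type (y axis), of each tested gene in the member list, 10 related lists and 2 neuronal marker lists (x axis), in males and in females; lines are medians. The members' median is 0.17 in males and 0.00003 in females.

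The summed level of the general pyramidal neuron markers did not overlap between genotypes in males, while those of the CA1, CA3 and dentate granule cell lists did. The sum of the 5 general markers was 143952 to 156640 normalized counts in mutant males and 131634 to 139866 in wild-type males, with 5 of 5 genes above 0 (median log2 difference 0.15). Of these 5, limma called 0 in males and DESeq2 called 2 (background 0.2%). In females the sum was 144030 to 147638 in mutants and 137624 to 156002 in wild type, which overlapped. CA1 markers summed to 7713 to 13119 in mutant males and 9819 to 11770 in wild-type males (2 of 4 above 0, median -0.04), and CA3 markers to 19674 to 22247 in mutant males and 19240 to 20523 in wild-type males (3 of 4, median 0.08). Dentate granule cell markers summed to 8859 to 10328 in mutant males and 9167 to 9582 in wild-type males (3 of 5, median 0.04). Of all tested genes, 50.6% were above 0 in males and 49.9% on average. The general pyramidal score was used as a covariate, chosen after these sums had been seen. With it the log2 difference in males was 0.21 for Nptx2 (0.40 without it), 0.26 for Bdnf (0.24), 0.20 for Nr4a3 (0.15) and 0.41 for Ptgs2 (0.25). For Inhba it was 0.25 (0.33 without), for Homer1 -0.10 (-0.0023) and for Pcsk1 0.16 (0.18). For Nptx1 it was 0.13 (0.06 without), for Rgs4 0.05 (0.10) and for Rheb 0.12 (0.14). In males limma then called 0 members and 0 of all 17496 tested genes. Inhibitory neuron markers summed to 15765 to 16911 in mutant males and 14940 to 16727 in wild-type males (5 of 6 above 0, median 0.02). Oligodendrocyte markers summed to 272914 to 353269 in mutant males and 346717 to 380571 in wild-type males (0 of 5 above 0, median -0.27), and to 328608 to 377369 in mutant females and 387285 to 444426 in wild-type females (median -0.25). Of these 5 oligodendrocyte markers, all lower in mutants on average, limma called 0 and DESeq2 called 3 in that comparison (background 0.429%). DESeq2 called 1 of them in males and 0 in females. Markers of fibroblasts (6 of 6 above 0 on average, median 0.72) and of pericytes and smooth muscle (5 of 5, median 0.83) had 0 genes called by limma. The fibroblast median was 0.16 in males and 1.30 in females, and that of pericytes and smooth muscle 0.82 and 0.84. Fibroblast markers summed to 3566 to 8739 in mutant females and 1934 to 2852 in wild-type females, which did not overlap. In males they summed to 2400 to 4952 in mutants and 2460 to 4906 in wild type, which overlapped. Pericyte and smooth muscle markers summed to 2128 to 5270 in mutant females and 1848 to 1916 in wild-type females, which did not overlap. Their sums were 1556 to 3760 in mutant males and 1633 to 1951 in wild-type males, which overlapped. No marker on these lists was at 0 in any library. The part of cell composition in the members' differences was not tested beyond this covariate. Without the 3 libraries low in choroid plexus RNA, mutant males had 1 library. The male log2 difference was then 0.26 for Bdnf, 0.31 for Nptx2, 0.14 for Nr4a3, 0.19 for Rheb and 0.47 for Ptgs2. In that fit the lone mutant male is assumed to vary like the other groups.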

How the data were processed

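RNA of 12 mouse hippocampus libraries was sequenced after the TruSeq RNA Sample Prep Kit v2, a kit without strand. Tools listed by the submitters are HTSeq, DESeq2, TopHat2 2.1.0 and Trimmomatic 0.35, with build GRCm38, per the submitters' processing notes; no release of the gene annotation was found in these sources. The deposited signal of a gene is its reads over a size factor, as the values show: 100% were whole multiples of 1 step in each library, within 0.001 reads. Symbols and positions came from GENCODE M21 (45229 of 46078 IDs matched). All value columns belonged to the 12 libraries.

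Groups came from the sample titles. The design had named this test for values that are not raw counts: limma 3.58.1 in R 4.3.3, with trend, on log2(value + 1), for 17496 genes averaging 10 or more (28582 not tested), with Benjamini-Hochberg adjustment over all of them at 0.05. The pseudocount understates the change of low genes. Percent differences and 95% intervals come from that fit. edgeR 4.0.16 and DESeq2 1.42.0 were run on recovered reads. Correlations used 100000 permutations. The fit was tested on simulated data. All 10 members are named, with up to 3 genes per pathway list by unadjusted p, any gene called, and the 5 genes most like Bdnf and Nptx2, of which some are not reported here. The members and lists were chosen with earlier results of these data known. Alternatives covered pseudocount, filter, scaling, test, replicate block, marker covariates and left-out libraries.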

Additional observations from a re-analysis of the deposited data

How the results depend on the processing

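The number of members called stayed at 0 in each comparison under every setting tried, and was 0 to 0 with each library left out in turn. Calls among all tested genes were 0 to 82 for genotype on average (1 as reported; 75 with DESeq2, 82 without the libraries low in choroid plexus RNA), 0 to 35 in males, 0 to 11 in females, 0 to 3 for the male minus female genotype difference (0 as reported in each) and 10 to 48 for sex (12 as reported). Members' log2 differences that changed sign were uncalled, and the cause was not tested. In males Homer1 was 0.0049 with upper-quartile factors. In females, with the choroid plexus covariate and then without the libraries low in it, Bdnf was -0.025 and -0.081, Ptgs2 -0.055 and -0.041, and Rgs4 0.014 and 0.068. For the male minus female genotype difference under these settings, Homer1 was -0.041 and -0.024 and Rgs4 -0.0082 and -0.0016; Homer1 was -0.035 with the pyramidal covariate. Between the sexes, without the low libraries, Bdnf was -0.011 and Rgs4 0.033; Rgs4 was 0.00030 with TMM factors, 0.00087 with limma-voom and 0.0095 with the pyramidal covariate, where Nptx1 was -0.0017.

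With 1 library left out, average genotype differences were -0.030 to 0.089 for Pcsk1 and -0.0074 to 0.085 for Rgs4, and that of Homer1 in males was -0.081 to 0.048. In females they were -0.081 to 0.094 for Bdnf, -0.013 to 0.27 for Nptx2, -0.056 to 0.038 for Nptx1, -0.053 to 0.11 for Ptgs2 and -0.11 to 0.068 for Rgs4. The male minus female genotype difference was -0.030 to 0.11 for Homer1 and -0.00074 to 0.084 for Rheb, and the sex difference -0.022 to 0.066 for Bdnf, -0.0072 to 0.040 for Nptx1 and -0.042 to 0.051 for Rgs4. The correlation of Bdnf with Nptx2 was 0.394 to 0.617, with Homer1 -0.22 to 0.066, with Pcsk1 -0.16 to 0.22 and with Rgs4 -0.43 to 0.075; that of Nptx2 with Pcsk1 was -0.14 to 0.26, with Nptx1 -0.38 to 0.053 and with Ptgs2 -0.061 to 0.36.

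Whether the replicate numbers pair the libraries was not settled. Deviations of same-numbered mutant and wild-type libraries within a sex correlated at 0.0097 to 0.108. Differently numbered libraries were not compared, so these values cannot exclude a pairing. With the replicate block 0 members were called in each comparison, r of Bdnf was -0.131 with Nptx2, -0.00042 with Nr4a3 and -0.011 with Inhba, and r of Nptx2 was -0.888 with Nr4a3 and -0.627 with Ptgs2. Bdnf with Pcsk1 had r = 0.014 with upper-quartile factors, and Bdnf with Rgs4 0.093 without the low libraries. Nptx2 had r of -0.116 with Nr4a3 and -0.397 with Pcsk1 without the low libraries. Within groups its r was -0.772 with Nr4a3, -0.120 with Pcsk1 and -0.577 with Ptgs2. Depth limits Inhba most, at 52 to 88 reads per library.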
